A study of Mus musculus with 4 samples.

Results

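The replication-dependent histone genes of the mouse were taken as all genes whose symbol names 1 of the clusters Hist1 to Hist4 followed by the histone type H1, H2A, H2B, H3 or H4. The GENCODE M21 annotation of the GRCm38 build, which mm10 stands for, holds 69 such genes among 55450 genes in all, 67 of them protein-coding and 2 pseudogenes. They were followed through gene lists of EpCAM-labelled, flow-sorted fetal pancreas cells on a C57BL/6 background, made by single-cell RNA sequencing. The libraries came from E15.5 and E13.5 embryos carrying Setd2 f/f together with Pdxcre (KO) and from E15.5 and E13.5 embryos carrying Setd2 f/f and labelled WT, 1 library for each group. The Pdx promoter restricts the recombinase to Pdx-expressing cells, so other sorted cells of a KO embryo may keep the gene, and how many embryos went into a library is not stated. Setd2 is the enzyme that trimethylates lysine 36 of histone H3.

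Replication-dependent histone genes supply the bulk of the core histones H2A, H2B, H3 and H4 and of the linker histone H1 while DNA is being copied. They are short, mostly without introns, and stand in clusters. Their messenger RNAs as a rule end just after a conserved stem-loop in place of a poly(A) tail. Stem-loop binding protein (Slbp) and the U7 small nuclear RNA guide that cleavage, and a minority of these genes also give polyadenylated RNAs when read-through reaches a poly(A) signal further on. Whether a gene appears in a library can therefore depend on how the library primes its RNA, and the sources used here do not give the library kit.

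The files give the genes of each library by identifier and symbol, and the measurement is whether a gene is there. They hold no counts, so no level, depth or interval can be given. Each group is a single library, so differences have no replicate check and none was tested. The complete lists held 25474 genes in E15.5 KO, 26341 in E13.5 KO and 25463 in E13.5 WT. The E15.5 WT list stops inside an identifier early on, and 0 of the 69 histone genes have an identifier that early, so the genotypes could not be compared at E15.5. Markers of the sorted tissue were in place: all 7 epithelial markers, Epcam and Cdh1 among them, and all 8 pancreatic markers were in each complete list. The 5 mesenchymal markers and 3 immune markers were in each list as well, and the part of other cell types in the histone listing was not tested. Of the endothelial and erythroid markers, Cdh5 and Gata1 were missing from E15.5 KO and present in both E13.5 lists. The 13 genes of histone H3 lysine 36 methylation, Setd2 included, were in every complete list, and a listing does not check the genotype labels.

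The stem-loop that gives these RNAs their ends was found in the annotated transcripts, which checks the name of the group. It was searched after the stop codon, on the transcript strand, as 16 bases that read GG, 3 free bases, TTT, 2 free bases, A, 3 free bases and CC, with a 6-base stem around a 4-base loop and at least 5 stem positions able to pair. Of 52 members with at least 30 annotated bases after a stop codon, 44 (84.6%) held it within 150 bases of the stop. Among other protein-coding genes it was found in 25 of 20896 (0.12%), and the 25 included 2 histone genes outside the clusters, H2afx and H2bfm. The stem-loop started 22 to 59 bases after the stop codon. The sequences below are shown because they carry the shared feature and its few variants. They are DNA-strand letters read from the GENCODE transcripts, 5′ to 3′, with the 16-base stem-loop in capitals and 5 flanking bases on each side.
Hist1h1c: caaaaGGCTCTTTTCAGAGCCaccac
Hist1h2ac: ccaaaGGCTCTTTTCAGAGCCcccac
Hist1h3b: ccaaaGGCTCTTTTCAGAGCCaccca
Hist1h1t: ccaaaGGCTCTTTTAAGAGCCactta
Hist1h2bb: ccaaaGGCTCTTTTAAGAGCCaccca
Hist2h2ac: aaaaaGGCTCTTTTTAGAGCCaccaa
Hist1h4c: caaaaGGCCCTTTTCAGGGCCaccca
Hist4h4: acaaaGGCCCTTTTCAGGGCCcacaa
Hist1h4b: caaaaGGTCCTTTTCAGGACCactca
Hist1h4i: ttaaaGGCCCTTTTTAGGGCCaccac
The form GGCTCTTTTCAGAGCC was shared by 26 members of the types H1, H2A, H2B and H3. The form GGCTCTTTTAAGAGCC was found in 6 members, among them Hist1h1t and Hist1h2bb, and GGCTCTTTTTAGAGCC in Hist2h2ac. All 11 H4 stem-loops carried another stem: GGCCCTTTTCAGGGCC in 7 members, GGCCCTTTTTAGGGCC in 2 and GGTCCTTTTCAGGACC in 2. Every member with 1 of the forms other than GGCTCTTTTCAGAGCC was in all 3 complete lists.

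Nearly the whole gene set was listed in every library. The E15.5 KO list held 64 of the 69 members (92.8%), the E13.5 KO list 63 (91.3%) and the E13.5 WT list 63 (91.3%), and the same 63 members were in all 3. Of all annotated genes the lists held 45.9% in E15.5 KO, 47.4% in E13.5 KO and 45.9% in E13.5 WT, and of protein-coding genes 76.2% in E15.5 KO, 78.1% in E13.5 KO and 77.9% in E13.5 WT. In all 3 lists were 40% of all genes and 73.1% of protein-coding genes. Histone genes are short and mostly of 1 exon, and such genes were listed less often. Single-exon protein-coding genes were listed at 41.4% in E15.5 KO, 41.5% in E13.5 KO and 41.6% in E13.5 WT, and 36.2% of all 1331 were in each list. Chemosensory receptor genes are part of this group. Without them, a choice made after the lists were seen, the shares were 47.8% in E15.5 KO, 47.7% in E13.5 KO and 47.8% in E13.5 WT. Of these 1145 genes 41.9% were in each list. Of the 1601 protein-coding genes spanning 2000 bases or less, 39% were in E15.5 KO, 39.7% in E13.5 KO and 39.5% in E13.5 WT, and 33.5% were in all 3. Each of these gene groups includes the histone members that fall in it. The depth behind each list is unknown, so a member that is not listed may have been missed.

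**Figure D1:**
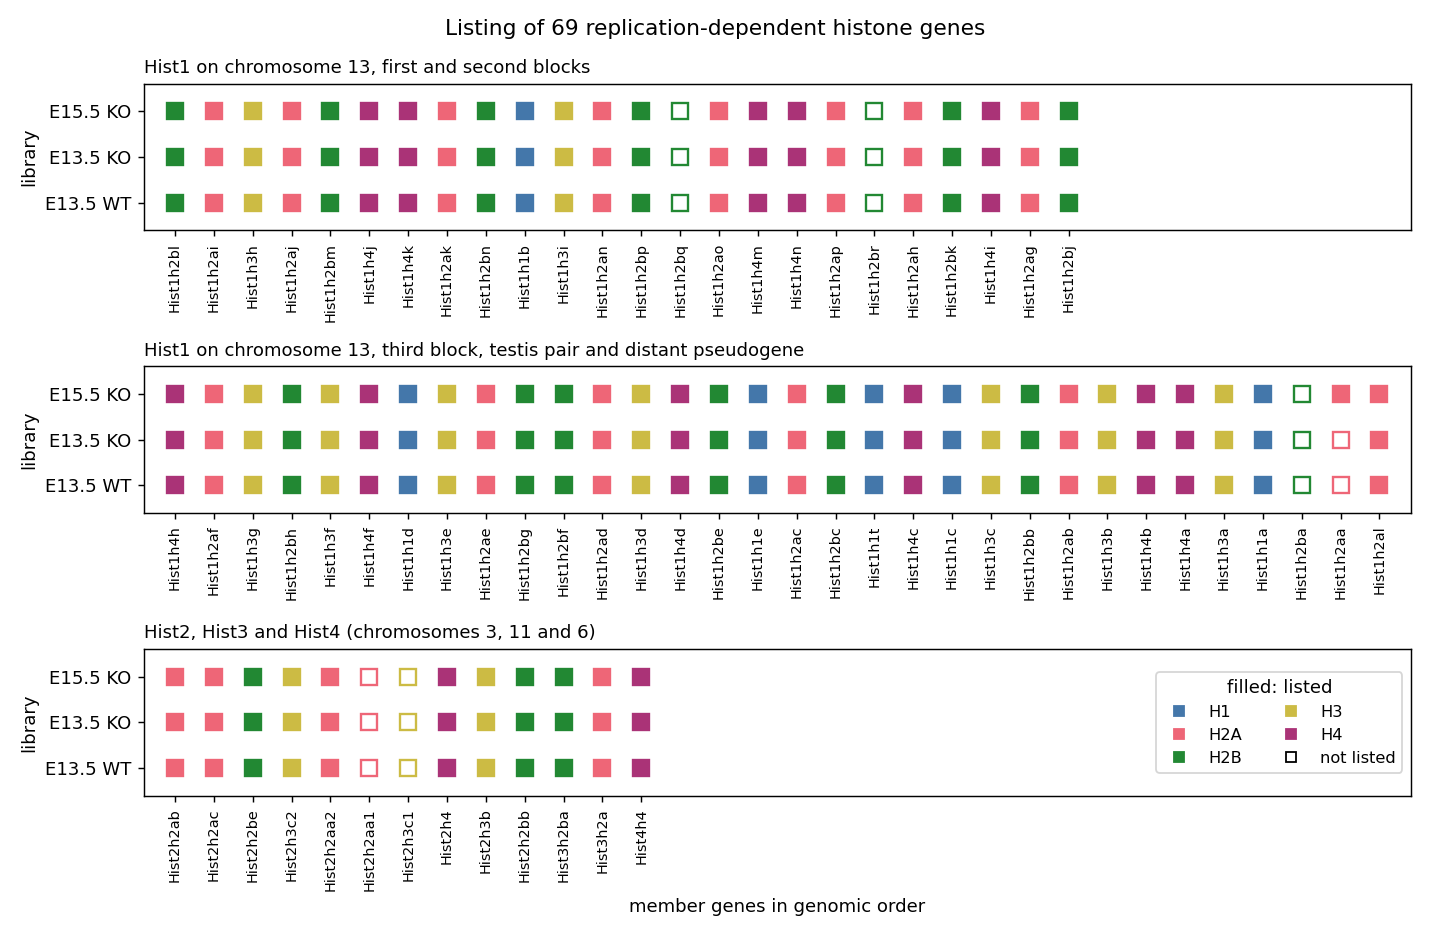
Listing of each member (columns, in genomic order within each cluster) in the E15.5 KO, E13.5 KO and E13.5 WT libraries (rows). Filled squares are listed and open squares are not, and colours give the histone type. The 6 columns with an open square are Hist1h2bq, Hist1h2br, Hist1h2ba, Hist1h2aa, Hist2h2aa1 and Hist2h3c1, and Hist1h2aa alone differs between libraries.

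Setd2 genotype was compared at E13.5, to see whether the same histone genes were listed in KO and WT cells. The E13.5 KO list held 63 members and the E13.5 WT list held the same 63, so 0 members were in KO only and 0 in WT only. Over all genes listed in either library, 9.72% were in KO only and 6.61% in WT only, together 16.3%. For protein-coding genes 6.08% were in 1 of the lists only, for single-exon protein-coding genes 13.3% and for those of 2000 bases or less 15.8%. A listing has no level, so any change in the amount of these RNAs would not appear here.

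Age was compared within the mutant, E15.5 KO against E13.5 KO. The E15.5 KO list held 64 members and the E13.5 KO list 63, with 63 in both. Hist1h2aa was the 1 member in E15.5 KO alone, and 0 members were in E13.5 KO alone. This is 1 of 64 histone genes (1.56%). Over all genes in either list 17.8% were in 1 of them, 7.37% in E15.5 KO alone and 10.4% in E13.5 KO alone. The share was 7.57% for protein-coding genes and 16.9% for single-exon ones. Age, sort and library cannot be told apart in this comparison, and the E13.5 KO sample is also part of the genotype comparison.

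By histone type, the linker and H4 genes were complete. All 6 H1 genes, from Hist1h1a to the testis-enriched Hist1h1t, were in each of the 3 complete lists, and so were all 13 H4 genes. Of the 12 H3 genes 11 were in each list, and Hist2h3c1 was in none. Of the 20 H2A genes 19 were in E15.5 KO, 18 in E13.5 KO and 18 in E13.5 WT, with Hist2h2aa1 in none and Hist1h2aa in E15.5 KO alone. Of the 18 H2B genes 15 were in each list, and Hist1h2ba, Hist1h2bq and Hist1h2br were in none. The unlisted members therefore belonged to the types H2B, H2A and H3. The 2 pseudogenes, Hist1h2aj and Hist1h2al, were listed in all 3 libraries. However, Hist1h2aj has few bases of its own (8.30% of its 100-base words, the measure described below for all members), and its listing is uncertain. In total, 10 of the 63 members in all lists had under 20%, among them the H4 genes Hist1h4m (11.9%) and Hist1h4n (19.3%). Their listings are uncertain for the same reason.

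**Figure D2:**
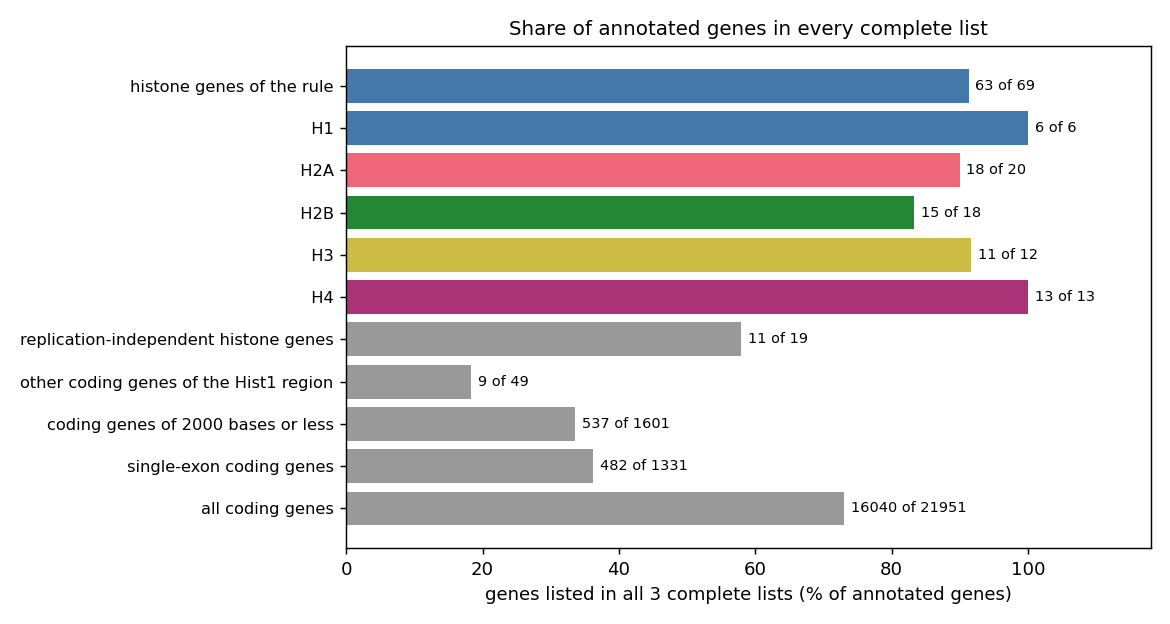
Share of annotated genes present in all 3 complete lists (x axis, percent), for the 69 histone genes, for each histone type, and for other gene groups in grey. The bar for the 69 histone genes reaches 91.3%. The lowest bar, 18.4%, is that of 49 other protein-coding genes of the Hist1 region without Hist1h2al, 36 of them receptor genes.

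By cluster, Hist1 on chromosome 13 had 56 members in 4 blocks and a distant pseudogene. The first block (chr13:21715763-21837530) held 19 members, of which 17 were in all 3 lists and the other 2, Hist1h2bq and Hist1h2br, in none. The second block (chr13:22035164-22043676) had 5 of 5 in all lists, and the third block (chr13:23531050-23764406) had 29 of 29. This block holds Hist1h1c, Hist1h1e, Hist1h4c and Hist1h3b, and also Hist1h1t. The pair Hist1h2ba and Hist1h2aa stands apart at chr13:23933773-23934851, and neither gene was in all lists. The pseudogene Hist1h2al lies far along the chromosome at chr13:51202727-51203065. In Hist2 (chr3:96219865-96270132) 8 of 10 members were in all lists, and the 2 members of Hist3 on chromosome 11 and the single Hist4 gene on chromosome 6, Hist4h4, were complete.

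The other genes of the Hist1 region were mostly vomeronasal receptor genes, and few of the region's genes were in every list. From the first to the last Hist1 member, without the distant pseudogene, the annotation holds 49 other protein-coding genes, 36 of them such receptor genes, which serve pheromone sensing. Of the 49, 14 were listed in E15.5 KO, 11 in E13.5 KO and 15 in E13.5 WT, with 9 in all 3 lists (18.4%) and 31 in none, and all 31 were receptor genes. Of the 36 receptor genes 0 were in all 3 lists, and of the 13 other genes 9 (69.2%), close to the 73.1% of all protein-coding genes. The 9 were Zfp184, Prss16, Zfp322a, Abt1, Btn1a1, Btn2a2, Hfe, Slc17a2 and Slc17a4. With the region drawn to Hist1h2al, as first planned, 138 of 230 genes (60.0%) were in all lists. The region without Hist1h2al was chosen after the data were seen.

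Among the 69 members, the testis pair held the only difference between the complete lists. Hist1h2aa (chr13:23934462-23934851, a single exon) encodes the H2A variant TH2A of male germ cells and early embryos, and its head-to-head neighbour Hist1h2ba (chr13:23933773-23934156) the H2B variant TH2B. Hist1h2aa was listed in E15.5 KO, and not in E13.5 KO or E13.5 WT. Hist1h2ba was listed in none of the 3. The starts of the pair are 305 bases apart in the annotation, and the bases upstream of Hist1h2aa are shown because they lie between the pair. Bases 250 to 1 before the RefSeq start of Hist1h2aa (GRCm38.p6, chr13:23934187-23934436, plus strand) are given first, and the same bases of Hist1h2ac, an H2A gene in all 3 lists (chr13:23683960-23684209, minus strand), second. Capitals mark, on either strand, the TATA box as TATAAA, the CCAAT box by its own letters and the octamer as ATTTGCAT; none overlap.
Hist1h2aa: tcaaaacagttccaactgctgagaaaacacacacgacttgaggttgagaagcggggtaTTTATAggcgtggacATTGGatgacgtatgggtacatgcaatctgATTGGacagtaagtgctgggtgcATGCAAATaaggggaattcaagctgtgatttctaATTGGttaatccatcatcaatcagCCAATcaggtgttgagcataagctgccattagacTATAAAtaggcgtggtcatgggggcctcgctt
Hist1h2ac: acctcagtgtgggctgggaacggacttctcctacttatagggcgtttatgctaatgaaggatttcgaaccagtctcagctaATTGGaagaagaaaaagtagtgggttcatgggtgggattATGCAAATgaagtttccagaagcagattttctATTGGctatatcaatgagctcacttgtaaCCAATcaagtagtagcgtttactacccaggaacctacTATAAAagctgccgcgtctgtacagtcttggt
Both stretches held TATAAA starting 32 bases before the start, an octamer (ATTTGCAT read from the other strand) and CCAAT boxes on both strands. Hist1h2aa held 1 more TATAAA further upstream, read from the other strand. The octamer is the site known for the factor Oct1 (Pou2f1) in H2B promoters. RefSeq promoters of 300 bases, 250 before and 50 after the start, were matched for 62 of the 69 members. A member counted if any of its promoters held the motif, while the share of all promoters counted each promoter singly. TATAAA was in 35 of the 62 (56.5%), against 13.6% of all 32851 promoters. CCAAT was in 53 (85.5%, against 37.4%), and in all 18 H2A, 16 H2B, 10 H3 and 6 H1 promoters but 3 of 12 H4 promoters. ATTTGCAT was in 14 (22.6%, against 1.74%), 7 of them H2A and 7 H2B. The promoters of head-to-head H2A and H2B genes overlap, as for Hist1h2ah and Hist1h2bk, and motifs were read on both strands. The same site can thus be counted for both genes of a pair, and the promoters are not separate units. All motif counts are matches of letters, with no measure of binding.

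Markers of male germ cells were read beside this pair. Of 7 such markers, 3 were listed in E15.5 KO, 4 in E13.5 KO and 5 in E13.5 WT. Ddx4, Dazl and Sycp3 were in every list. The protamine gene Prm1 and the transition protein gene Tnp1 were in E13.5 WT only, Tnp2 was in E13.5 KO only, and Prm2 was in none. E15.5 KO, the library that listed Hist1h2aa, thus held 3 of the 7, and the part of germ cells in this listing was not tested. The third testis-enriched member, Hist1h1t (chr13:23695814-23696725), was in all 3 lists.

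Of the other 4 members that no complete list held, 2 make up 1 arm of the inverted duplication in Hist2. Hist2h2aa2 (chr3:96239749-96240276) and Hist2h3c2 (chr3:96238108-96239127), which encode H2A and H3, were in all 3 lists. Their copies on the other arm, Hist2h2aa1 (chr3:96245497-96246082) and Hist2h3c1 (chr3:96246685-96248509), were in none. The copies share their stem-loop and its flanks, shown here to make the likeness of the pairs visible.
Hist2h2aa1: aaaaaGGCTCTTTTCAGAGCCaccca
Hist2h2aa2: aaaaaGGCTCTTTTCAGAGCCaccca
Hist2h3c1: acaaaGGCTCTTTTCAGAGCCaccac
Hist2h3c2: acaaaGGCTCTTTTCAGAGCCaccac
The whole 528-base transcript of Hist2h2aa2 was contained without a mismatch in the 586 bases of Hist2h2aa1. Of the 100-base words of Hist2h2aa2, 0% were its own (the measure described below), so its listing in place of Hist2h2aa1 is uncertain. The H3 copies had a common run of 666 bases and the same translated coding sequence. The arms differed in what else the annotation places there. Gm20634 (chr3:96245554-96248509), a non-coding transcript on the same strand, covered 90.3% of the exon bases of Hist2h2aa1 and 100% of those of Hist2h3c1, and it was in all 3 lists. No annotated gene lay on the same strand over Hist2h2aa2 or Hist2h3c2. Among the other members, same-strand overlap reached 59.3% for Hist2h2bb (with Gm42743), 33.0% for Hist3h2a (with Trim17) and 25.7% for Hist1h1e (with Hist1h2be), and these 3 were in all lists. Where genes overlap on 1 strand, a read may be given to either or to neither, and the sources used here do not give the counting rule. The part of this overlap in the listing was not tested.

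The remaining members in no list, the H2B genes Hist1h2bq (chr13:21806612-21810197) and Hist1h2br (chr13:21833743-21837530), are copies of each other. Their longest transcripts shared a run of 1603 bases, their 300-base RefSeq promoters were identical (100%), and they were the only members annotated with 3 exons. Each stands head to head with an H2A gene, Hist1h2ao and Hist1h2ap. Both H2A genes were in all 3 lists, and they share a run of 452 bases. Few of their 100-base words were their own, 7.35% for Hist1h2ao and 7.83% for Hist1h2ap (the measure described below), so their listing is uncertain. Among 13 head-to-head H2A and H2B pairs with starts at most 500 bases apart, 10 had both genes in all 3 lists. The other pairs were Hist1h2ao with Hist1h2bq, Hist1h2ap with Hist1h2br, and Hist1h2aa with Hist1h2ba, and in each the H2B gene was in no list. The authors' annotation release is not given in the sources used here, so a member in no list may also have been missing from it.

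The sequence each member shares with genes elsewhere was set beside its listing, and its part in the listing was not tested. For each member, the share of its 100-base words that occur in no annotated transcript of a gene elsewhere was computed. Words shared only with a gene that overlaps the member counted as its own. The values therefore leave out the overlap with Gm20634, which covered 90.3% of the exon bases of Hist2h2aa1 and 100% of those of Hist2h3c1. It ranged from 4.11% to 72.6% in the 5 members in no list, with a median of 13.6%. In the 63 members in all lists it ranged from 0% to 100%, with a median of 67.8%. The groups overlapped: Hist2h2aa2, listed everywhere, had 0%, and 10 of the 63 had under 20%, among them Hist1h2ap, Hist1h2ao and Hist1h3h. Hist1h2bq had 5.16%, Hist1h2br 13.6%, Hist2h2aa1 4.11%, Hist2h3c1 67.1% and Hist1h2ba 72.6%, while Hist1h2aa had 100%. A listing of a member with few unique words is uncertain, since its reads could be those of a copy. Counted by translated sequence, the 67 coding members fell into 29 groups, and the largest was the 13 H4 genes, which all encode 1 protein. Hist1h2bq and Hist1h2br encode the same H2B as Hist1h2bl, Hist1h2bn, Hist1h2bj and Hist1h2bf, which were in all lists. The only group in no list was Hist1h2ba, which shares its protein sequence with no other member.

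**Figure D3:**
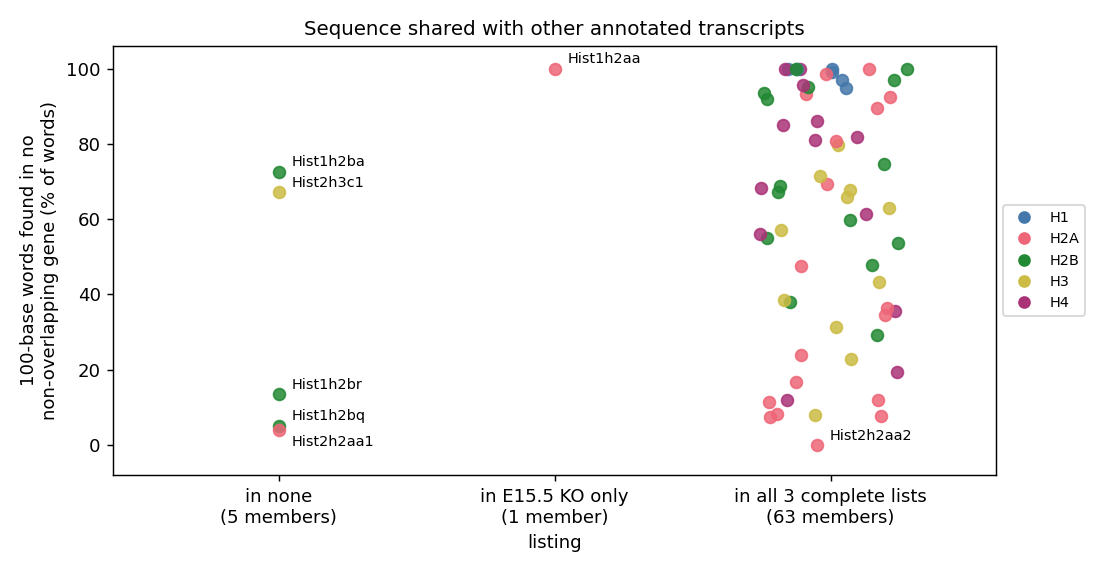
Share of each member's 100-base words that no non-overlapping annotated gene holds (y axis, percent), by listing (x axis), 1 point per gene and colours for the histone type. The 5 members in no list lie between 4.11% and 72.6%, inside the 0% to 100% range of the 63 members in all lists.

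The annotated RNA ends were compared with the listing because these RNAs often lack a poly(A) tail. Of the 67 coding members, 22 had a transcript running more than 100 bases past the stem-loop, and 21 of them were in all 3 lists. Examples are Hist1h1c, whose transcript ran 840 bases further, Hist1h2ac with 2010, Hist1h2be with 1861 and Hist4h4 with 2445 bases. Another 22 ended within 100 bases of the stem-loop, and 21 of these were in all lists too, for instance Hist1h2ab (11 bases), Hist1h3a (37 bases) and Hist1h4b (28 bases). The shares were the same, 95.5% each. Nearly all members were listed, so these shares had little room to differ, and a listing cannot show the amount of RNA. Of 13 members annotated without any bases after the stop codon, 11 were in all lists, among them Hist1h1b, Hist1h2ai and Hist1h3h. Of 10 members with such bases and no stem-loop in them, 8 were in all lists. This class ranges from Hist1h2af, with 1 base after the stop, to Hist2h2be, with 2192, and it includes Hist1h2bq and Hist1h2br.

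A poly(A) signal (AATAAA or ATTAAA) in the last 40 bases of a transcript was present in 17 members, of which 14 were in all 3 lists. The other 3, in no list, were the duplicate copies Hist1h2bq, Hist1h2br and Hist2h3c1 described above. Of the 52 members without a signal, 49 were in all lists, and the others were Hist1h2ba, Hist1h2aa and Hist2h2aa1. The part of the signal in the listing was not tested. Past the stem-loop, the median annotated length was 996.5 bases for H1 genes, 35 for H2A, 42 for H2B, 367 for H3 and 330 for H4. The ranges overlapped: the longest end was 2010 bases among H2A genes (Hist1h2ac) and 1861 among H2B genes (Hist1h2be), against 1167 among H3 genes. Hist1h1d had the longest, 4884 bases, and Hist1h2ap and Hist1h4m the shortest, 3 bases. An annotated end is no evidence of the end used in these cells.

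**Figure D4:**
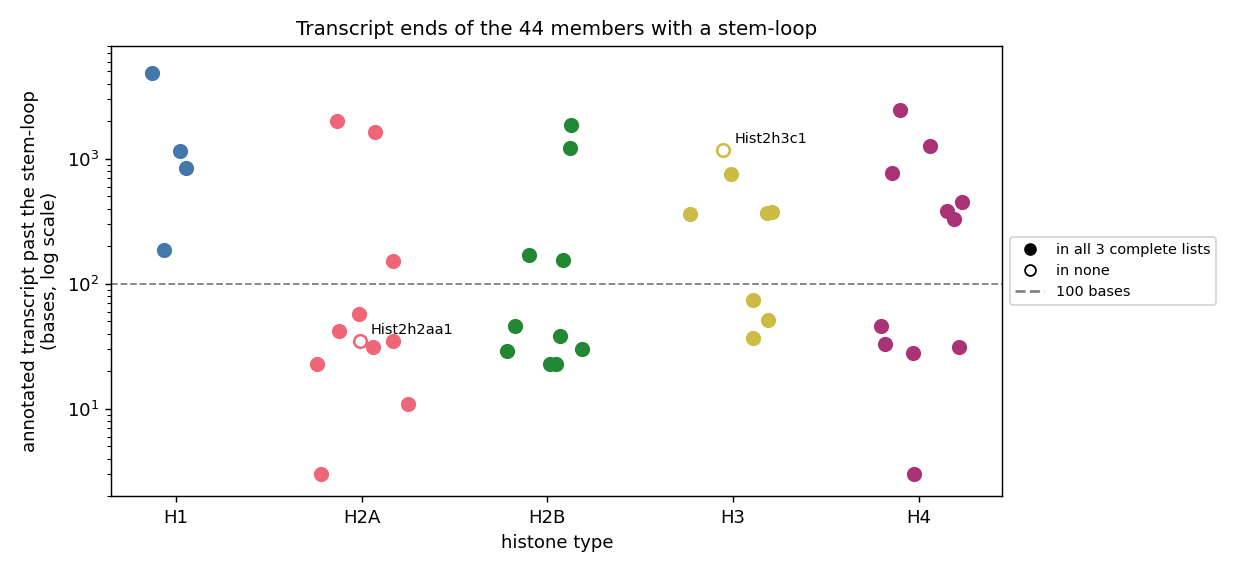
Bases of annotated transcript past the stem-loop (y axis, log scale) for the 44 members with a stem-loop, by histone type (x axis). Filled points were in all 3 complete lists and open points in none, and the dashed line marks 100 bases. The 2 open points, Hist2h2aa1 at 35 and Hist2h3c1 at 1167 bases, lie on either side of the line.

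On the strand opposite the H2A genes, the annotation holds 19 predicted microRNA genes, each overlapping 1 H2A member. The E15.5 KO list held 7 of the 19, the E13.5 KO list 9 and the E13.5 WT list 9. All annotated microRNA genes were listed at 6.77% in E15.5 KO, 7.4% in E13.5 KO and 6.86% in E13.5 WT. In all 3 lists were 6: Gm44313 opposite Hist3h2a, Gm44454 opposite Hist1h2ak, Gm44346 opposite Hist1h2an, Gm44394 opposite Hist1h2ae, Gm44484 opposite Hist1h2ab and Gm44492 opposite Hist2h2ac. In none were 7, among them Gm44344 opposite Hist1h2aa and Gm47313 opposite Hist2h2aa1. At E13.5 the KO list alone held Gm44357 and Gm44350 and the WT list alone Gm44486 and Gm44297, which is 4 of the 11 in either. Of all microRNA genes in either E13.5 list, 33.5% were in KO alone and 28.2% in WT alone, together 61.7%. Between the KO ages, Gm44341 was in the E15.5 list alone, and Gm44367, Gm44357 and Gm44350 in the E13.5 list alone, 4 of 10 in either. Of all microRNA genes in either KO list, 29.4% were at E15.5 alone and 35.5% at E13.5 alone, together 64.9%. Whether strand was used in counting is not given in the sources used here, and without it reads of an H2A gene and of its opposite partner cannot be told apart.

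**Figure D5:**
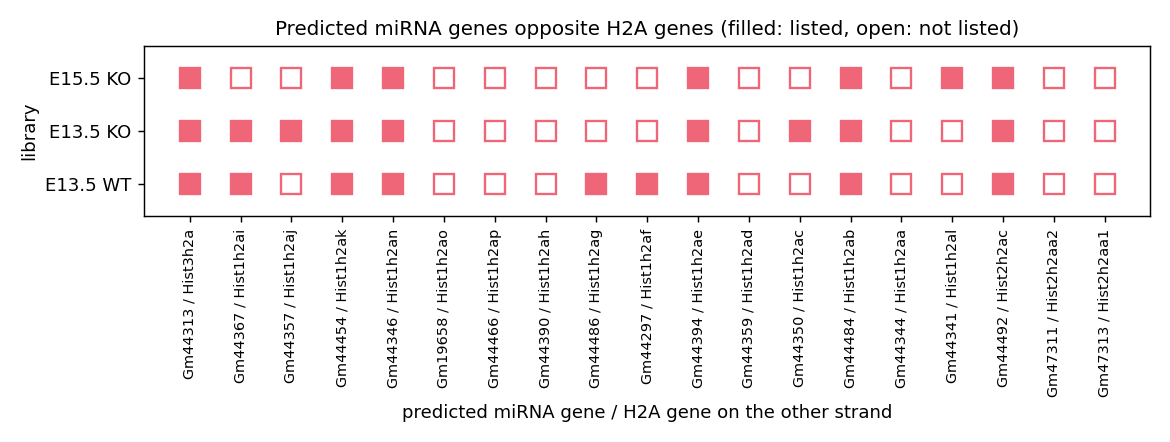
Listing of the 19 predicted microRNA genes on the strand opposite H2A members (columns, named with the H2A gene) in the E15.5 KO, E13.5 KO and E13.5 WT libraries (rows), filled where listed and open where not. The E15.5 KO row has 7 filled squares, the E13.5 KO row 9 and the E13.5 WT row 9, and 6 columns are filled throughout.

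Histone genes outside the clusters are mostly expressed independently of DNA replication and mostly give polyadenylated RNAs, though H2afx and H2bfm held the stem-loop. Of the 19 such genes examined, 13 were in E15.5 KO, 11 in E13.5 KO and 12 in E13.5 WT, a smaller share than of the members. Those not in all 3 lists are known as germline genes, apart from the pseudogene H2afy3. The 11 in all 3 lists were H3f3a and H3f3b (H3.3), H2afz and H2afv (H2A.Z), H2afx, H2afj, H2afy and H2afy2 (macroH2A), H1f0, H1fx and the centromeric Cenpa. The oocyte linker histone gene H1foo was in E15.5 KO and E13.5 WT and not in E13.5 KO, and H2afy3, annotated as a processed pseudogene, was in E15.5 KO only. The 6 in none were H2afb1, H2afb2, H2afb3, H2al2a, H2bfm and Hils1, which are known as genes of the male germ line. A wider set of 23 germline-enriched histone genes, chosen after the lists were seen, had 5 in E15.5 KO, 3 in E13.5 KO and 3 in E13.5 WT, with 18 in none. How much sequence its H2al genes on the X chromosome share was not measured. Single listings such as that of H2al1f in E15.5 KO are therefore uncertain.

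The genes that make and use histone RNA did not differ between the complete lists. Of 25 annotated genes of histone RNA transcription and 3′ processing, 24 were in each list, among them Slbp, Npat, Lsm10, Lsm11, Zfp473 and Casp8ap2. Rnu7, the U7 small nuclear RNA gene, was in none. All 24 annotated histone chaperone and deposition genes were in each list, such as Asf1a, Asf1b, Chaf1a, Hira and Nasp, and so were all 40 genes of S phase and DNA replication, among them Mcm2, Pcna, Rrm2 and Mki67. Cdc45 and Rpa1, the 2 of these 40 that the E15.5 WT list covers, were listed there as well.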

How the data were processed

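Each file deposited by the authors holds Ensembl identifiers beside symbols, with no header and no measured value, so the unit is other: a gene is in the list or it is not. Seurat and mm10 are named in the submitters' processing notes. Not given in the sources used here: aligner, annotation release, and rule for listing a gene. Members were found by symbol and looked up by identifier in GENCODE M21 (GRCm38). All 64 listed members matched it under the same symbol. Stem-loops, poly(A) signals and shared words came from GENCODE transcripts, and promoters from RefSeq (GRCm38.p6). No genome sequence was used, so nothing past an annotated end was searched. Hist1 blocks were split at gaps over 100000 bases. Python 3.11.15 and matplotlib 3.10.9 were used, and the search functions were tested on simulated data. The members and gene lists were chosen with earlier results of these data known. Genes named were members that differed or were in no list, then examples in alphabetical order by type and RNA end, and listed genes of the other lists that were not in all 3. Opposite-strand genes, the Hist1 region without Hist1h2al and further examples were chosen after the lists were seen. Ars2 and Spt2, from the fixed lists, are not symbols of this annotation. With 1 library per group no test was run.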

Additional observations from a re-analysis of the deposited data

How the results depend on the processing

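Finding members by identifier, keeping protein-coding members, leaving out the testis-enriched members, and, chosen after the data were seen, keeping members with a unique 100-base word each moved the number listed per library by less than 1.5 times. With stem-loop members only, each library listed 42, and with genes of identical translated sequence taken as 1 group 28 were listed in E15.5 KO, 27 in E13.5 KO and 27 in E13.5 WT. These counts are smaller because fewer genes enter. The 0 members in KO only and 0 in WT only at E13.5 stayed at 0 by identifier, with protein-coding members, without the testis-enriched members and with stem-loop members only, the settings run for these counts. The 1 member at E15.5 only fell to 0 without the testis-enriched genes and with stem-loop members only, since it is Hist1h2aa. The share of background genes in 1 list only was 6.08% for protein-coding genes at E13.5, against 16.3% for all genes, and 7.57% against 17.8% between the KO ages. A margin of 50 or 300 bases past the stem-loop left 24 or 17 members with long ends in all lists. Stem-loops after the annotated end were not searched, because no genome sequence was used. No paired analysis was possible because no group holds more than 1 library. The depth of each library is unknown.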
